A study of Mus musculus with 15 samples.

Results

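The laminins, the integrins and the linkers of the basement membrane were followed, 42 of the 23244 gene entries in the series table. They were taken by symbol: all 11 laminin chain genes, all 18 integrin alpha and 8 integrin beta subunit genes, and 5 genes (Nid1, Nid2, Hspg2, Agrn and Dag1) whose products link laminin to other matrix proteins or to the cell surface. The tissue came from mouse embryonic stem cells of the EB5 Rx::GFP+/- strain, in which GFP reports the eye field gene Rx, grown as floating aggregates (SFEBq) that form optic epithelium. Day 10 Rx::GFP+ tissue was cut out by hand and either collected or cultured further. The +Fgf groups received 5 ng/ml human recombinant bFgf with 10% FBS, and serum was part of this medium only, so bFgf and serum cannot be told apart. The +Wnt groups received the GSK3 inhibitor CHIR99201, which activates Wnt/β-catenin signaling, at 3 μM for the first 24 h and at 1 μM afterwards. Tissue of both kinds was collected at Day 12 and Day 15, which gave 5 groups of 3 biological replicates and 15 libraries. No library came from unstimulated tissue at Day 12 or Day 15. In a change from Day 10, stimulation and time in culture thus cannot be told apart. All 5 groups derive from 1 reporter line and from aggregates that had received 4% Matrigel, a basement membrane extract rich in laminin protein, so the values here are of transcripts made in a tissue already supplied with laminin.

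Laminins are cross-shaped trimers of 1 alpha, 1 beta and 1 gamma chain that polymerize into the first sheet of a basement membrane, to which nidogens and perlecan tie the collagen IV network. Integrins are receptors of 1 alpha and 1 beta subunit that grip laminin, fibronectin or other ligands, while dystroglycan grips laminin through its sugar chains. In the developing eye a basement membrane lines the outer face of the pigment epithelium and the vitreal face of the neural retina.

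Values are the deposited edgeR-normalized CPM, and rested on 12556998 to 16175450 counted reads per library, so that 1 read was worth 0.0620 to 0.0764 CPM. Groups were compared with limma on log2(CPM + 0.3) over the 13845 genes with at least 1 CPM in at least 3 libraries, two-sided, with Benjamini-Hochberg adjustment over all of them, and a gene is called when its adjusted p is under 0.05. This filter kept 33 of the 42 genes, and Lama3 alone passed it through Day 15 +Wnt libraries only. With CPM taken of the column total, Lamb3, Lamc3 and Itga11 passed through +Wnt libraries only, and Itgb3 through +Fgf libraries only. The filter thus favoured calls of these genes in the direction of the tissue that let them pass, and they are part of the counts below. A log2 change on this scale understates the change of genes near 0, and for a group with no library over 3 reads the text gives a lower bound of the fold, computed at 3 reads per library, which covers counting error only. Levels of different genes are compared only per kilobase of exon, in CPM per kb, which could be computed for 40 of the 42 genes. The labelled tissues were checked against markers: Rax, the reporter's own gene and a retinal progenitor marker, had a mean of 164.2 ± 8.63 CPM at Day 10 (SD, n = 3), 221.5 ± 11.4 and 311.4 ± 28.6 CPM in +Fgf at Day 12 and Day 15, and 44.7 ± 5.77 and 5.41 ± 0.367 CPM in +Wnt. Six6, another progenitor marker, had a mean of 291.8, 316.8 and 224.7 CPM in the first 3 of these groups, and of 29.3 and 1.59 CPM in +Wnt at Day 12 and Day 15. Over 6 progenitor markers the sum was 1787 to 1950 CPM at Day 10 and 1887 to 2137 CPM in +Fgf. In +Wnt the sum was 719 to 768.7 CPM at Day 12 and 490.6 to 537.3 CPM at Day 15. Lhx2 and Pax6 still had means of 230.1 and 244.9 CPM in Day 15 +Wnt. Lhx2 was highest at Day 10, at 477.2 CPM, and lower in both tissues afterwards. The summed level of 7 pigment epithelium genes was 4982 to 6476 CPM in Day 15 +Wnt and at most 1464 CPM elsewhere, but Rpe65, the visual cycle isomerase of mature pigment epithelium, was at 3 reads or fewer in every library. In these bulk samples a change in the number of cells of a type and a change in RNA per cell cannot be told apart. Both Day 12 groups are compared with the same Day 10 libraries.

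Nid1, Itga4 and Itgb5 stand for the main patterns among these genes: Nid1 was higher in +Fgf at Day 12 and then rose in +Wnt, Itga4 was higher in +Fgf at both days, and Itgb5 was higher in +Wnt at both days. The bases before their start sites are shown because the 3 genes differed in how their levels changed over the 5 groups. They are RefSeq sequences of GRCm38.p6, the assembly also called mm10, on the plus strand, ending at the last base before the annotated gene: chr13:13437352-13437550 for Nid1, chr2:79255176-79255425 for Itga4 and chr16:33829415-33829664 for Itgb5. Capitals mark the GC box, GGGCGG on either strand.
Nid1: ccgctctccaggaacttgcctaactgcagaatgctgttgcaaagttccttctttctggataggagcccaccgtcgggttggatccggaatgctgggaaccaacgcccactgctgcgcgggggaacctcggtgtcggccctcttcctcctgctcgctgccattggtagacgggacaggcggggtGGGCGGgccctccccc
Itga4: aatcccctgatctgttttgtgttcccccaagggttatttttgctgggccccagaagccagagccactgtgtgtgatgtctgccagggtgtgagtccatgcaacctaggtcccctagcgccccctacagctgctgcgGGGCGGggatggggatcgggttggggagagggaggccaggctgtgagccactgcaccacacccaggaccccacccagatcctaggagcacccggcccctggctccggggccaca
Itgb5: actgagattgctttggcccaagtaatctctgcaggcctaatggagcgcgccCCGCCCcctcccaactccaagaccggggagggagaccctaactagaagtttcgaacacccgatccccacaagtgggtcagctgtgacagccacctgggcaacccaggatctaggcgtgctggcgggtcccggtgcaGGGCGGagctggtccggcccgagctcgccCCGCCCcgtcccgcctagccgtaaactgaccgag
The Nid1 and Itga4 windows hold 1 GC box each and the Itgb5 window holds 3. None of the 3 windows holds the letters searched for TCF/LEF factors (CTTTGA), ETS factors (CCGGAAG), AP-1 (TGANTCA) or MITF (TCANGTG), on either strand. RefSeq promoter windows of 250 bases before and 50 after the start were matched to 26 of the 42 genes. A GC box occurred in 15 of these 26 windows (57.7%) and in 35.7% of all 32851 promoter windows. For CTTTGA the shares were 15.4% and 16.0%, for CCGGAAG 3.85% and 8.86%, for TGANTCA 7.69% and 7.81%, for TCANGTG 11.5% and 14.3%, and for the CCAAT box, searched by its letters CCAAT and held once by the Nid1 window, 19.2% and 37.4%. The Itga9 window, which holds a TGANTCA and a TCANGTG match, lay 105002 bases from the annotated start of the transcript used. For Itgb8 this distance was 526 bases. A match is only a description of letters, and its absence says nothing about a factor.

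Day 10 tissue already carried transcripts for complete laminin trimers, for linkers and for receptors. Per kilobase, the laminin alpha transcripts were split between Lama5, at 4.5 CPM per kb, and Lama1, at 4.26 CPM per kb, which made up 50.4 ± 2.37% and 47.8 ± 2.15% of the alpha chain total (SD, n = 3). Lamb1 made up 63.8 ± 1.61% and Lamb2 35.9 ± 1.60% of the beta chain total, and Lamc1 98.4 ± 0.311% of the gamma chain total. Lama5, Lama1, Lamb1 and Lamc1 encode the chains of laminin-511 and laminin-111, the trimers of most embryonic epithelia. Among receptors, Itgb1 stood at 95.0 CPM per kb and Dag1 at 61.0 CPM per kb, the 2 highest of the 40 genes on this scale. Itga6, the main alpha subunit for laminin, followed with 27.2 CPM per kb among the alpha subunits.

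In the first 2 days of culture more of these genes rose than fell in +Fgf, and more fell than rose in +Wnt. In Day 12 +Fgf against Day 10, 24 of the 33 tested genes were called, 18 higher and 6 lower, where 55.7% of all genes tested were called (27.9% higher and 27.8% lower). Higher genes thus made up 54.5% of the 33, and the median log2 change was 0.59, against -0.002 for all genes tested. In Day 12 +Wnt against Day 10, 21 were called, 8 higher and 13 lower, with 60.2% of all genes called (30.6% higher and 29.6% lower) and a median of -0.11, so the number called was near the background. Between the tissues at Day 12, 26 were called, 21 higher in +Fgf and 5 lower, with 51.5% of all genes called (26.3% higher and 25.2% lower) and a median of 0.67. From Day 12 to Day 15 the directions were the other way round. The earlier and later changes use the same Day 12 libraries with opposite sign, so they are not independent. Of the 33 genes, 18 were called in +Fgf, 3 higher and 15 lower at Day 15 (57.1% of all genes called, 27.2% higher and 29.9% lower), and 19 were called in +Wnt, 18 higher and 1 lower (68% of all genes called, 32.5% higher and 35.5% lower). Both totals were below the background, and nearly all calls went 1 way in each tissue, with median changes of -0.41 and 0.46. At Day 15, 23 genes differed between the tissues, 8 higher in +Fgf and 15 lower, with 68.7% of all genes called (38% higher and 30.6% lower) and a median of -0.18, again a total near the background. The plot of log2 changes by gene and comparison shows these directions gene by gene. RNA integrity, as listed in the study's sample table, moved with the groups: with it as a covariate, 13 genes were called in Day 12 +Fgf against Day 10 and 15 between the tissues at Day 15, where 40.5% and 46% of all genes were then called. Over the 7 comparisons, 34 of the 154 calls were lost with that covariate, and only some of these losses are named below. The part of RNA integrity in the results was not tested.

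**Figure D1:**
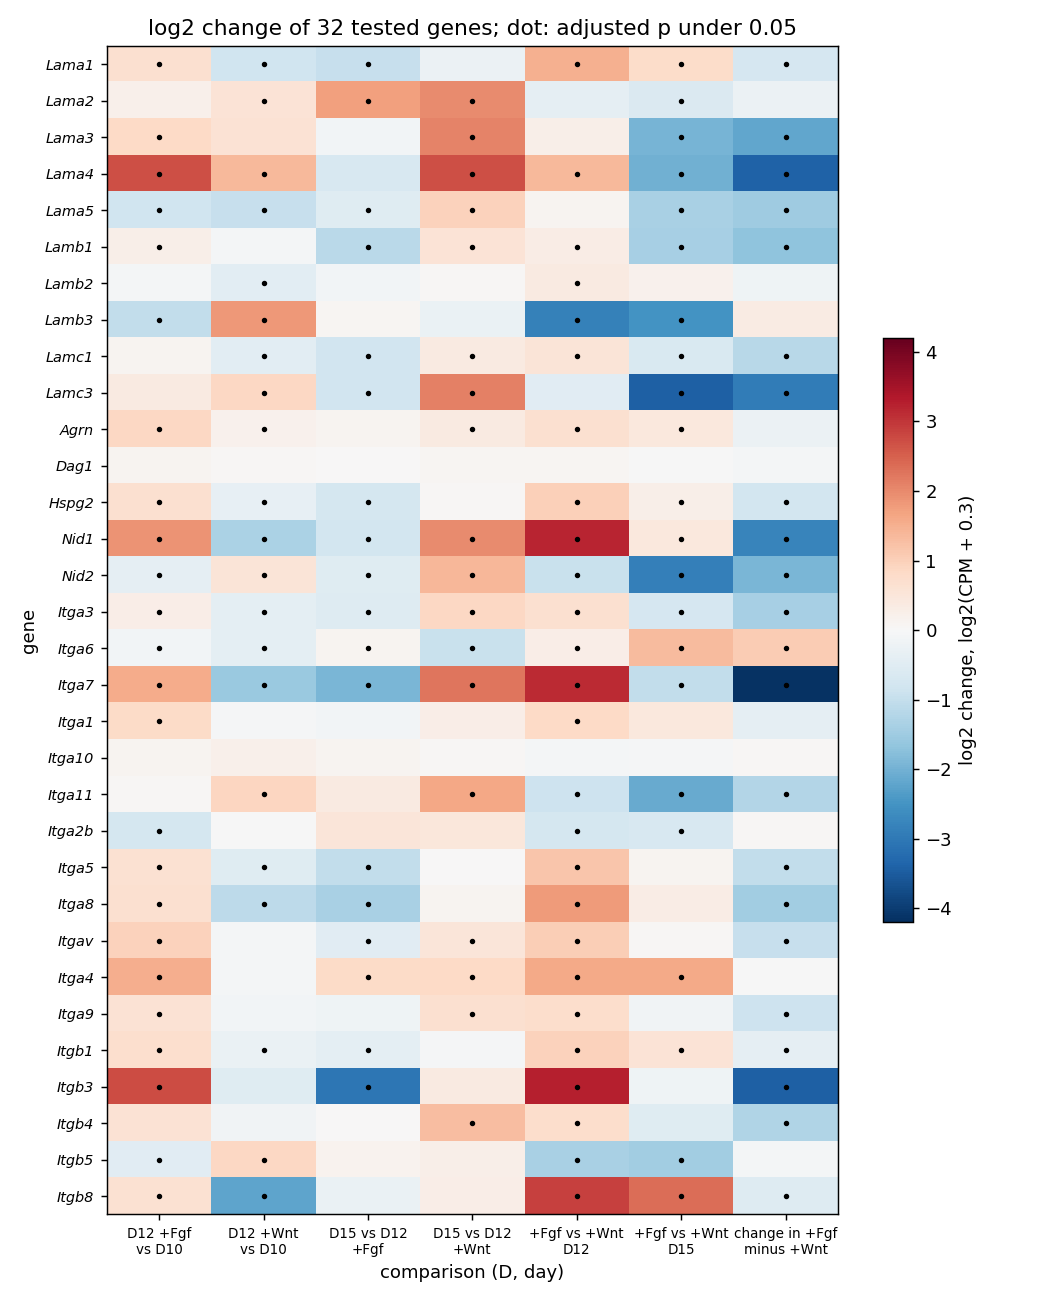
Log2 change on the log2(CPM + 0.3) scale of 32 of the 33 tested genes (rows, ordered by role) in 7 comparisons (columns), with red for higher and blue for lower in the first-named group and a dot where the limma adjusted p was under 0.05. The column for +Fgf against +Wnt at Day 12 holds 21 red and 5 blue called cells, and the last column, the change from Day 12 to Day 15 in +Fgf minus that in +Wnt, holds 1 red and 21 blue called cells.

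Lama1 (XLOC_008671, chr17:67697259-67822647, plus strand), the alpha chain of laminin-111, separated the tissues at both days. It was 40.4, 39.9 and 41.4 CPM at Day 10, 64.8, 60.9 and 68.9 CPM in Day 12 +Fgf and 33.6, 16.2 and 21.6 CPM in Day 12 +Wnt. At Day 15 it was 33.8, 36.4 and 28.9 CPM in +Fgf and 15.1, 21.6 and 20.8 CPM in +Wnt. All Day 12 +Fgf libraries lay above every other library, and at Day 15 the tissues did not overlap. The difference between +Fgf and +Wnt was 2.82-fold at Day 12 (log2 1.5, SE 0.18, limma adjusted p = 3.59e-06) and 1.72-fold at Day 15 (log2 0.79, SE 0.18, limma adjusted p = 0.00119). The highest Day 12 +Wnt library for Lama1, replicate 1, was also the highest of its group for the endoderm genes Gata4 and Sox17 (3.90 CPM each, against at most 0.728 CPM in the other 2). Without it, the Lama1 difference at Day 12 was 1.78 on the log2 scale.

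Lama5 (XLOC_012533, chr2:180176373-180225859, minus strand), the alpha chain of laminin-511, fell in both Day 12 tissues and recovered in +Wnt alone. It was 56.1, 49.7 and 47.9 CPM at Day 10, 29.7, 26.2 and 30.0 CPM in Day 12 +Fgf and 30.8, 23.2 and 25.3 CPM in Day 12 +Wnt, and the 2 Day 12 tissues overlapped through that same replicate 1 of Day 12 +Wnt alone. At Day 15 it was 18.7, 24.0 and 17.9 CPM in +Fgf and 62.8, 47.0 and 47.6 CPM in +Wnt, without overlap. From Day 12 to Day 15 it fell in +Fgf (log2 -0.50, SE 0.13, limma adjusted p = 0.00314) and rose in +Wnt (log2 0.98, SE 0.13, limma adjusted p = 4.16e-06), and the 2 changes differed (log2 -1.48, SE 0.18, limma adjusted p = 5.53e-06).

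Lama2 and Lama4, chains better known from muscle and from vessel and nerve sheath basement membranes, were minor at Day 10 and increased later. Lama2 was 1.16, 1.60 and 1.07 CPM at Day 10, 1.14, 2.04 and 1.41 CPM in Day 12 +Fgf and 1.82, 1.81 and 2.58 CPM in Day 12 +Wnt. Its Day 15 values were 5.38, 5.97 and 5.65 CPM in +Fgf and 10.1, 9.70 and 7.16 CPM in +Wnt, so that all Day 15 libraries lay above all earlier ones. Lama2 rose from Day 12 to Day 15 by log2 1.74, SE 0.21, limma adjusted p = 2.37e-06 in +Fgf and log2 1.97, SE 0.21, limma adjusted p = 3.28e-07 in +Wnt, and the difference between the changes was not called (log2 -0.23, SE 0.29, limma adjusted p = 0.537). Lama4 had 1, 2 and 3 reads in the Day 10 libraries. It was 2.09, 3.06 and 2.68 CPM in Day 12 +Fgf, at least 12.3-fold higher than Day 10, and 0.692, 0.626 and 1.26 CPM in Day 12 +Wnt, at least 4.06-fold higher. At Day 15 Lama4 was 1.62, 0.687 and 2.83 CPM in +Fgf and 8.003, 6.34 and 7.01 CPM in +Wnt, where each library exceeded every library of the other groups. Lama4 differed between the tissues at Day 15 (log2 -2.03, SE 0.33, limma adjusted p = 3.58e-05), but with RNA integrity as a covariate the difference was -1.37 and no longer called (limma adjusted p = 0.0732).

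The shares of the alpha chains, per kilobase and within each library, followed from these levels. Lama1 made up 68.5 ± 0.646% of the alpha chain total in Day 12 +Fgf and 56.4 ± 2.75% in Day 15 +Fgf. In Day 12 +Wnt it made up 47.1 ± 6.08%, and in Day 15 +Wnt 22.9 ± 5.53%, while Lama5 held 51.5 ± 5.03% and Lama4 13.2 ± 0.853% there (SD, n = 3). At Day 15 the tissues thus differed in the balance of Lama1 and Lama5, with Lama1 the major alpha transcript in +Fgf and Lama5 in +Wnt.

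Lamb1, which carries the beta 1 chain of laminin-111 and laminin-511, was 122, 122 and 111 CPM at Day 10, 135, 123 and 168 CPM in Day 12 +Fgf and 133, 104 and 103 CPM in Day 12 +Wnt. By Day 15 Lamb1 had fallen in +Fgf to 66.2, 66.2 and 61.8 CPM (log2 -1.12, SE 0.10, limma adjusted p = 7.02e-08) and risen in +Wnt to 172, 168 and 167 CPM (log2 0.58, SE 0.10, limma adjusted p = 5.15e-05). The Day 12 tissues overlapped through replicate 1 of Day 12 +Wnt alone, the library with the raised endoderm genes, and the Day 15 tissues did not overlap. Lamc1, the gamma chain shared by most laminins, was 158, 168 and 160.3 CPM at Day 10, 172, 164 and 191 CPM in Day 12 +Fgf and 134, 108 and 117 CPM in Day 12 +Wnt. Its Day 15 values were 97.3, 110.4 and 95.4 CPM in +Fgf and 165, 149 and 153 CPM in +Wnt. It was higher in +Fgf at Day 12 and in +Wnt at Day 15, with no overlap at either day, and the change of order was called (log2 -1.18, SE 0.11, limma adjusted p = 2.35e-07). Lamb2, the beta 2 chain found in many mature basement membranes, stayed between 44.7 and 67.5 CPM in all 15 libraries, and its share of the beta chain total was 47.2 ± 2.26% in Day 15 +Fgf and 22.8 ± 2.25% in Day 15 +Wnt.

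Lamb3 and Lamc3 were rare chains with most of their reads in +Wnt libraries. Lamb3, the beta chain of laminin-332 of skin, had 28 to 39 reads per library in Day 12 +Wnt and at most 3 in Day 12 +Fgf, so it was at least 11.9-fold lower in +Fgf. Lamc3, a gamma 3 chain known from retina and brain, had 60 to 69 reads in Day 15 +Wnt and 2 in each Day 15 +Fgf library, so it was at least 20.8-fold lower in +Fgf. Like Lama3, they stayed under 5 CPM in every library.

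**Figure D2:**
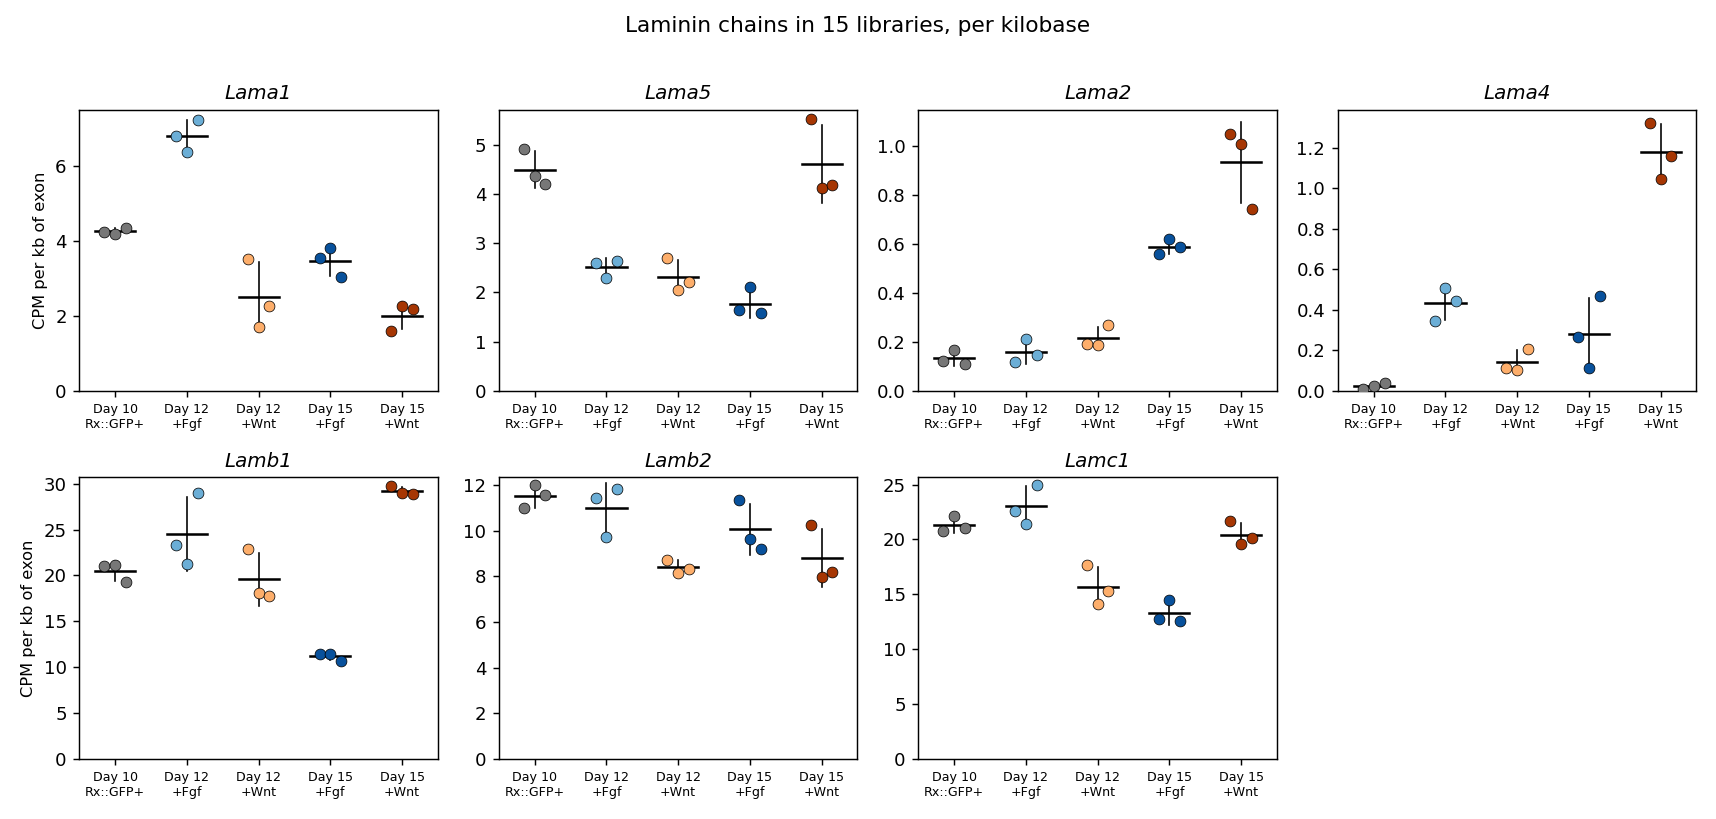
Level of 7 laminin chain genes in CPM per kilobase of exon (y axis, from 0, scaled for each gene) in the 3 libraries of each of the 5 groups (points), with the mean (horizontal line) and SD (vertical line). Lama1 is highest in Day 12 +Fgf at a mean of 6.81 CPM per kb, Lama5 has its 2 highest groups at Day 10 and Day 15 +Wnt, and Lamb1 is lowest in Day 15 +Fgf at 11.2 CPM per kb.

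The nidogens, which bridge laminin and collagen IV, moved apart. Nid1 (XLOC_004891, chr13:13437551-13512269, plus strand) was 24.7, 30.3 and 24.8 CPM at Day 10, 94.8, 81.2 and 122 CPM in Day 12 +Fgf and 9.62, 10.2 and 11.4 CPM in Day 12 +Wnt. At Day 15 it was 65.6, 57.8 and 49.8 CPM in +Fgf and 40.5, 47.4 and 39.8 CPM in +Wnt. No 2 of the 3 groups up to Day 12 overlapped, and at Day 15 +Fgf remained above +Wnt by a smaller margin. From Day 10 Nid1 rose in +Fgf (log2 1.88, SE 0.13, limma adjusted p = 9.22e-09) and fell in +Wnt (log2 -1.32, SE 0.13, limma adjusted p = 3.55e-07), which made a 9.17-fold difference at Day 12 (log2 3.2, SE 0.13, limma adjusted p = 8.52e-12) and one of 1.35-fold at Day 15 (log2 0.43, SE 0.13, limma adjusted p = 0.00818). With RNA integrity as a covariate the Day 15 difference was 0.14 and not called (limma adjusted p = 0.661).

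Nid2 (XLOC_005797, chr14:19751265-19811787, plus strand), its paralog with overlapping functions, took the opposite course at Day 12. It was 43.9, 38.8 and 41.8 CPM at Day 10, 31.6, 30.0 and 33.5 CPM in Day 12 +Fgf and 66.2, 57.1 and 60.2 CPM in Day 12 +Wnt. At Day 15 Nid2 was 18.4, 24.9 and 23.5 CPM in +Fgf and 184, 147 and 156 CPM in +Wnt. The +Wnt libraries were above all others at both days, and the difference grew from log2 -0.94, SE 0.10, limma adjusted p = 8.25e-07 at Day 12 to log2 -2.85, SE 0.10, limma adjusted p = 5.06e-13 at Day 15. Per kilobase, Nid1 made up 33.9 ± 3.99% of the nidogen transcripts at Day 10, 71.2 ± 3.04% in Day 12 +Fgf, 12.1 ± 1.46% in Day 12 +Wnt, 67.3 ± 5.88% in Day 15 +Fgf and 17.5 ± 2.80% in Day 15 +Wnt (SD, n = 3). Nid1 was thus the major nidogen transcript in +Fgf tissue and Nid2 in the other 3 groups. Exons of both genes overlap a gene on the opposite strand in GENCODE (Gm48682 and Rtraf), and since the strand setting of the counting is not given in the sources used here, reads of such pairs cannot be told apart.

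Hspg2, which encodes the large proteoglycan perlecan, was 51.2, 58.2 and 54.9 CPM at Day 10, 87.2, 77.9 and 97.4 CPM in Day 12 +Fgf and 44.8, 39.3 and 45.1 CPM in Day 12 +Wnt. At Day 15 it was 60.8, 52.2 and 45.1 CPM in +Fgf and 44.0, 45.9 and 42.9 CPM in +Wnt. Only Day 12 +Fgf stood above all other groups (log2 0.67, SE 0.10, limma adjusted p = 2.42e-05 from Day 10), and by Day 15 the difference between the tissues was log2 0.24, SE 0.10, limma adjusted p = 0.0371. This small difference was not called by edgeR on the recovered reads (log2 0.20, adjusted p = 0.0853). Agrn, which encodes agrin, another heparan sulfate proteoglycan and a ligand of dystroglycan, lay between 193 and 438 CPM and was higher in +Fgf than in +Wnt at Day 12 (log2 0.67, SE 0.08, limma adjusted p = 1.54e-06) and Day 15 (log2 0.43, SE 0.08, limma adjusted p = 9.7e-05). With RNA integrity as a covariate the latter was 0.26 and not called (limma adjusted p = 0.136).

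Dag1, which encodes dystroglycan, was the steadiest of the 33 tested genes. It was 261, 289.9 and 257 CPM at Day 10, 295, 279 and 298 CPM in Day 12 +Fgf and 286, 263 and 278 CPM in Day 12 +Wnt. At Day 15 Dag1 was 300.3, 292 and 285 CPM in +Fgf and 301, 298 and 283 CPM in +Wnt. The groups overlapped, none of the 7 comparisons was called, and the highest group mean was 1.09 times the lowest. Only 0.5% of all genes tested had group means closer together than those of Dag1.

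**Figure D3:**
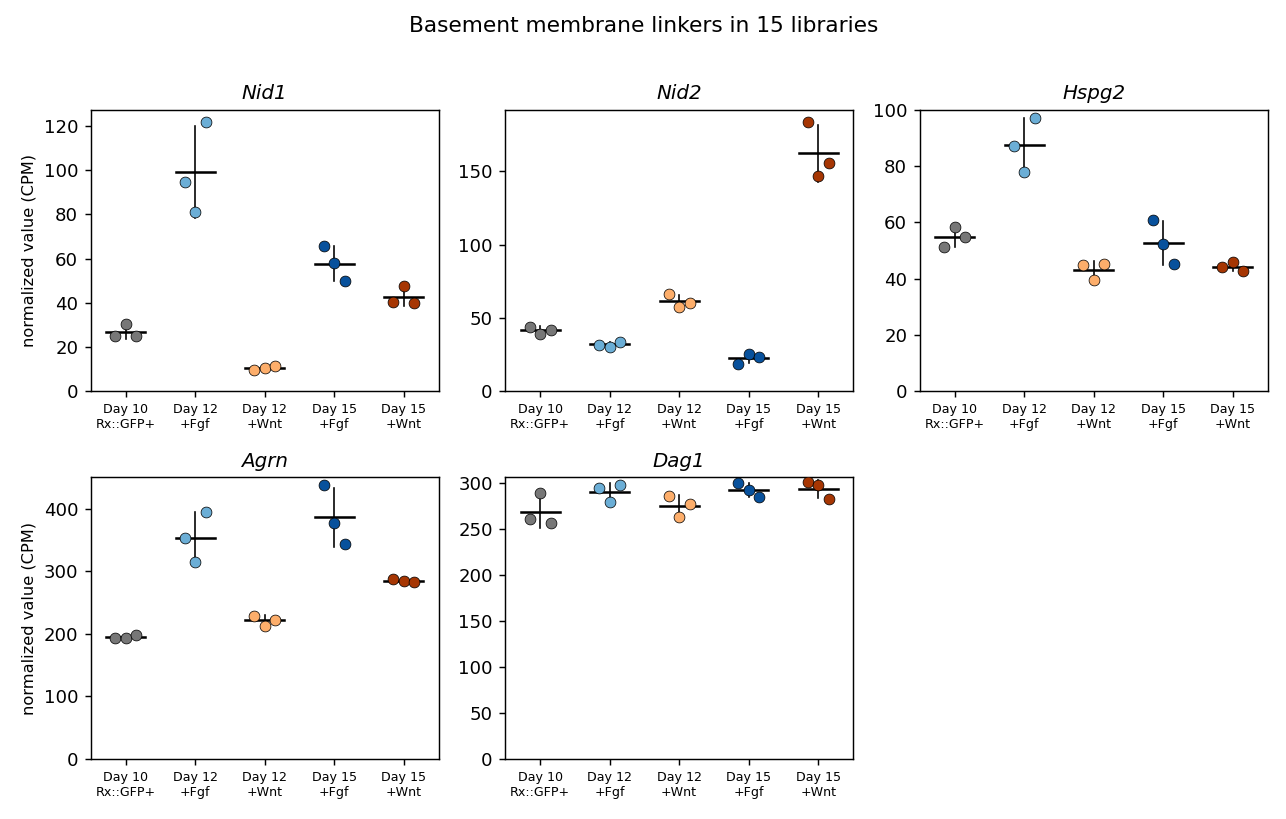
Normalized level in CPM (y axis, from 0, scaled for each gene) of the 5 linker genes in the 3 libraries of each group (points), with the mean (horizontal line) and SD (vertical line). Nid1 is highest in Day 12 +Fgf (81.2 to 122.0 CPM) and Nid2 in Day 15 +Wnt (147.1 to 184.1 CPM), while the Dag1 libraries all lie between 257 and 301 CPM.

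The alpha subunits that bind laminin, Itga3, Itga6 and Itga7, each pair with Itgb1. Itga6 (XLOC_010915, chr2:71745616-71858416, plus strand) was 114, 118 and 119.8 CPM at Day 10, 108, 108 and 105 CPM in Day 12 +Fgf and 88.8, 89.7 and 87.1 CPM in Day 12 +Wnt. At Day 15 it was 122, 109 and 121 CPM in +Fgf and 44.9, 49.6 and 44.6 CPM in +Wnt, the lowest group by a clear gap. Itga6 was the only 1 of the 33 genes that fell from Day 12 to Day 15 in +Wnt (log2 -0.93, SE 0.05, limma adjusted p = 2.08e-10). The tissues differed 2.52-fold at Day 15 (log2 1.34, SE 0.05, limma adjusted p = 1.49e-12).

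Itga3 went the other way. Its values were 26.4, 20.8 and 25.9 CPM at Day 10, 27.4, 26.9 and 34.7 CPM in Day 12 +Fgf and 20.1, 17.1 and 17.5 CPM in Day 12 +Wnt. At Day 15 Itga3 was 19.5, 21.2 and 20.1 CPM in +Fgf and 36.3, 29.8 and 34.3 CPM in +Wnt, so the order of the tissues at Day 12 was turned at Day 15 without overlap at either day. The difference between the changes was log2 -1.39, SE 0.16, limma adjusted p = 2.46e-06. Per kilobase, Itga3 made up 13.0 ± 1.28% of the 3 laminin-binding alpha transcripts in Day 15 +Fgf and 36.1 ± 3.58% in Day 15 +Wnt (SD, n = 3).

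Itga7 (XLOC_001805, chr10:128933818-128958282, plus strand), best known from muscle, had the largest difference between the Day 12 to Day 15 changes of the 2 tissues among the 33 genes (log2 -4.17, SE 0.36, limma adjusted p = 1.19e-07). It was 3.82, 2.61 and 3.97 CPM at Day 10, 10.8, 6.82 and 16.6 CPM in Day 12 +Fgf and 0.944, 1.11 and 0.861 CPM in Day 12 +Wnt. The Day 15 values were 3.02, 1.99 and 2.97 CPM in +Fgf and 5.09, 5.82 and 6.38 CPM in +Wnt. Day 12 +Fgf held the highest libraries and Day 12 +Wnt the lowest, and at Day 15 +Wnt was above +Fgf. It fell in +Fgf from Day 12 to Day 15 (log2 -1.92, SE 0.25, limma adjusted p = 7.5e-06) and rose in +Wnt (log2 2.25, SE 0.25, limma adjusted p = 7.22e-07). The Day 15 difference of -1.05 on the log2 scale was not called with RNA integrity as a covariate (-1.19, limma adjusted p = 0.058). Exons of Itga7 (Mettl7b), and among the other genes given with values those of Lama2 (Gm48084), Lama3 (Gm29200), Lamc3 (Gm13441), Itga8 (E030013I19Rik), Itgav (Gm13684) and Itga4 (Cerkl), overlap the gene in brackets on the opposite strand, and those of Itga1 overlap Gm49395 on the same strand.

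Of the alpha subunits that bind RGD ligands such as fibronectin and vitronectin, Itga5, Itga8 and Itgav were each highest in Day 12 +Fgf. Itga5, the fibronectin receptor subunit, was 34.8, 42.7 and 40.0 CPM at Day 10, 58.4, 59.6 and 64.8 CPM in Day 12 +Fgf and 28.4, 28.2 and 25.2 CPM in Day 12 +Wnt. At Day 15 Itga5 was 29.7, 31.6 and 28.1 CPM in +Fgf and 30.1, 26.7 and 26.2 CPM in +Wnt, and the tissues overlapped. The Day 12 difference was log2 1.15, SE 0.08, limma adjusted p = 6.26e-09 and that at Day 15 was log2 0.11, SE 0.08, limma adjusted p = 0.273.

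Itgav, the subunit shared by the vitronectin and TGF-β binding integrins, was 42.9, 54.9 and 50.4 CPM at Day 10, 94.1, 85.0 and 109.7 CPM in Day 12 +Fgf and 50.9, 44.0 and 44.5 CPM in Day 12 +Wnt. Day 15 libraries held 73.6, 73.8 and 60.1 CPM in +Fgf and 67.1, 68.8 and 62.6 CPM in +Wnt. Itgav rose by log2 0.96, SE 0.10, limma adjusted p = 1.07e-06 in +Fgf from Day 10, and the Day 15 tissues overlapped. Itga8, the nephronectin receptor subunit, was 3.54, 5.35 and 5.27 CPM at Day 10, 8.75, 7.14 and 7.03 CPM in Day 12 +Fgf and 1.51, 2.23 and 2.38 CPM in Day 12 +Wnt. Its Day 15 values were 2.95, 2.75 and 2.62 CPM in +Fgf and 1.86, 3.06 and 1.82 CPM in +Wnt. Day 12 +Fgf was again above all other libraries, and the Day 12 difference was log2 1.78, SE 0.21, limma adjusted p = 2.52e-06.

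Itga4, whose partners bind Vcam1 and fibronectin, was the only 1 of these genes that rose in +Fgf in both intervals. It was 2.45, 2.54 and 3.13 CPM at Day 10, 8.62, 9.30 and 7.03 CPM in Day 12 +Fgf and 2.14, 2.51 and 2.98 CPM in Day 12 +Wnt. By Day 15 it was 13.3, 15.0 and 15.7 CPM in +Fgf and 4.47, 5.29 and 4.35 CPM in +Wnt. The +Fgf libraries lay above all others at both days, by log2 1.60, SE 0.15, limma adjusted p = 1.82e-07 at Day 12 and log2 1.58, SE 0.15, limma adjusted p = 9.92e-08 at Day 15. Its increase from Day 12 to Day 15 was 0.80 in +Fgf and 0.82 in +Wnt on the log2 scale, and the difference between them was not called (log2 -0.02, SE 0.22, limma adjusted p = 0.95). Itga9, a tenascin receptor subunit related to Itga4, was 5.11, 5.48 and 3.59 CPM at Day 10, 8.43, 6.63 and 7.03 CPM in Day 12 +Fgf and 3.65, 3.97 and 5.50 CPM in Day 12 +Wnt. At Day 15 Itga9 was 7.82, 6.18 and 5.30 CPM in +Fgf and 7.07, 7.23 and 6.80 CPM in +Wnt, where the tissues overlapped. It rose in Day 12 +Fgf (log2 0.62, SE 0.18, limma adjusted p = 0.0087), and without Day 10 replicate 3 the increase was 0.45 and not called (limma adjusted p = 0.0556). With RNA integrity as a covariate the increase was not called either.

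Itgb1, the beta subunit of the laminin and fibronectin receptors and the most abundant of the 40 genes per kilobase, was 357, 372 and 358 CPM at Day 10, 549.7, 564 and 644 CPM in Day 12 +Fgf and 292, 307 and 306 CPM in Day 12 +Wnt. The Day 15 values were 447, 446 and 424 CPM in +Fgf and 307, 291 and 285 CPM in +Wnt. The +Fgf libraries were above all Day 10 and +Wnt libraries at both days. The differences were log2 0.95, SE 0.05, limma adjusted p = 1.92e-10 at Day 12 and log2 0.58, SE 0.05, limma adjusted p = 4.29e-08 at Day 15.

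The tissues also differed in beta subunits that, besides Itgb1, can pair with Itgav. Itgb5 (XLOC_007623, chr16:33829665-33949338, plus strand), a vitronectin receptor subunit used by pigment epithelium, was 67.1, 50.3 and 51.8 CPM at Day 10, 38.0, 36.6 and 45.7 CPM in Day 12 +Fgf and 109.6, 109.9 and 92.2 CPM in Day 12 +Wnt. At Day 15 Itgb5 was 46.3, 46.0 and 41.7 CPM in +Fgf and 142, 107 and 124 CPM in +Wnt. Every +Wnt library lay above every library of the other groups, and the difference was log2 -1.37, SE 0.12, limma adjusted p = 4.85e-08 at Day 12 and log2 -1.47, SE 0.12, limma adjusted p = 9.22e-09 at Day 15.

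Itgb8 (XLOC_004865, chr12:119158022-119238802, minus strand), a subunit that with Itgav activates latent TGF-β, had the opposite pattern. It was 23.2, 32.6 and 24.7 CPM at Day 10, 41.3, 42.1 and 42.4 CPM in Day 12 +Fgf and 6.61, 5.01 and 4.83 CPM in Day 12 +Wnt. Day 15 libraries held 34.8, 33.2 and 36.6 CPM in +Fgf and 5.96, 7.83 and 6.17 CPM in +Wnt. The +Wnt libraries were below all others, the +Fgf libraries above all others, and the difference was 7.37-fold at Day 12 (log2 2.88, SE 0.13, limma adjusted p = 3.36e-11) and 5.09-fold at Day 15 (log2 2.35, SE 0.13, limma adjusted p = 1.46e-10). Most of this difference was a loss in +Wnt, which fell from Day 10 by 2.23 on the log2 scale against an increase of 0.66 in +Fgf.

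Itgb3, another vitronectin receptor subunit, stood above the other groups in Day 12 +Fgf alone. It was 0.681, 1.00 and 0.764 CPM at Day 10, 6.21, 4.91 and 11.3 CPM in Day 12 +Fgf and 0.692, 0.626 and 0.199 CPM in Day 12 +Wnt. By Day 15 it was 0.811, 0.137 and 1.13 CPM in +Fgf and 0.869, 0.895 and 0.421 CPM in +Wnt. The 3 Day 12 +Fgf libraries were above all 12 others, which overlapped. It rose from Day 10 (log2 2.73, SE 0.41, limma adjusted p = 3.12e-05) and fell again by Day 15 (log2 -3.05, SE 0.41, limma adjusted p = 7.8e-06). At these low levels the size of the fall depended on the value added before taking logs, and was -3.62 with 0.05 CPM and -2.30 with 1 CPM. Of the summed level of Itgb3, Itgb5, Itgb6 and Itgb8, per kilobase, Itgb5 made up 67.5 ± 0.523% in Day 12 +Fgf and 97.8 ± 0.310% in Day 12 +Wnt, and Itgb8 25.9 ± 2.67% and 1.88 ± 0.255% (SD, n = 3).

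**Figure D4:**
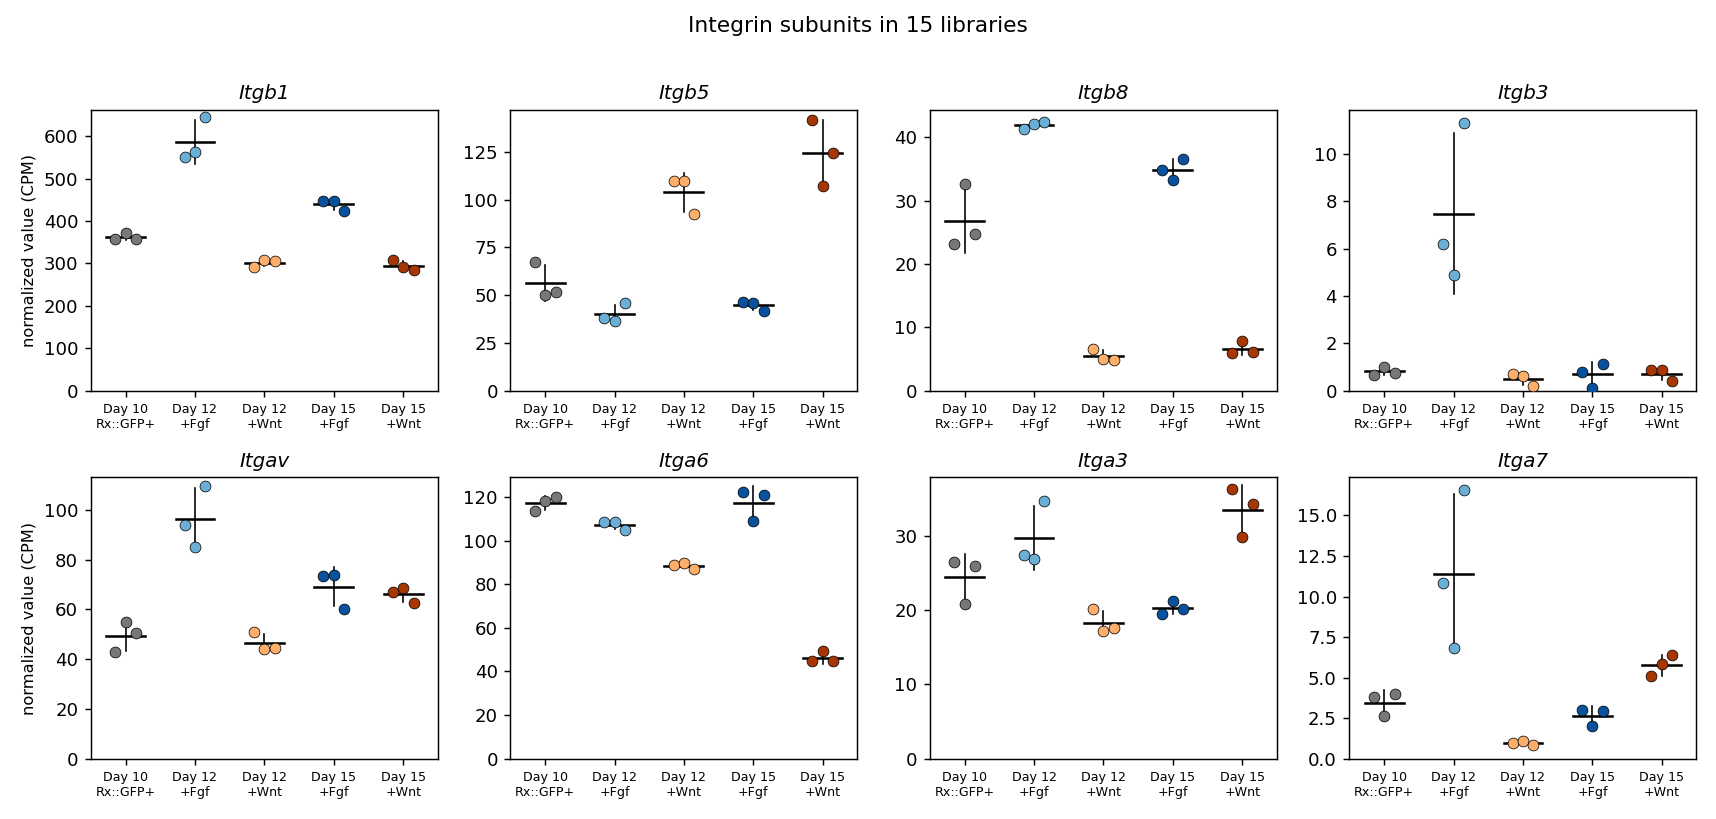
Normalized level in CPM (y axis, from 0, scaled for each gene) of 8 integrin subunit genes in the 3 libraries of each group (points), with the mean (horizontal line) and SD (vertical line). Itgb5 lies between 92.2 and 141.8 CPM in the +Wnt libraries and Itgb8 at most at 7.83 CPM there, and Itgb3 is above 4 CPM in Day 12 +Fgf only.

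The change from Day 12 to Day 15 differed between the stimulations for 23 of the 33 genes, 1 higher in +Fgf (Itga6) and 22 lower, where 47.9% of all genes tested were called (27% higher and 20.9% lower). The median of this difference was -0.98 on the log2 scale over the 33 genes and 0.058 over all genes tested. Among the 19 genes with a mean of at least 5 CPM over the 15 libraries, 14 were called, 1 higher and 13 lower, against 50.2% of the 11341 genes at that level (31% higher and 19.2% lower). Nid1, Nid2, Lama5, Lamb1, Lamc1, Lamc3, Itga3, Itga7 and Itgav fell in +Fgf and rose in +Wnt. Lama1, Itgb1, Itga5, Itga8, Itgb3 and Hspg2 fell in +Fgf and were not called in +Wnt. With RNA integrity as a covariate 17 of the 33 differences were called, 1 higher and 16 lower, where 27.8% of all genes were then called, and the falls of Nid2 (-0.57, limma adjusted p = 0.0612), Lama1 (-0.58, limma adjusted p = 0.27) and Lamc3 (-0.37, limma adjusted p = 0.657) in +Fgf were not.

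**Figure D5:**
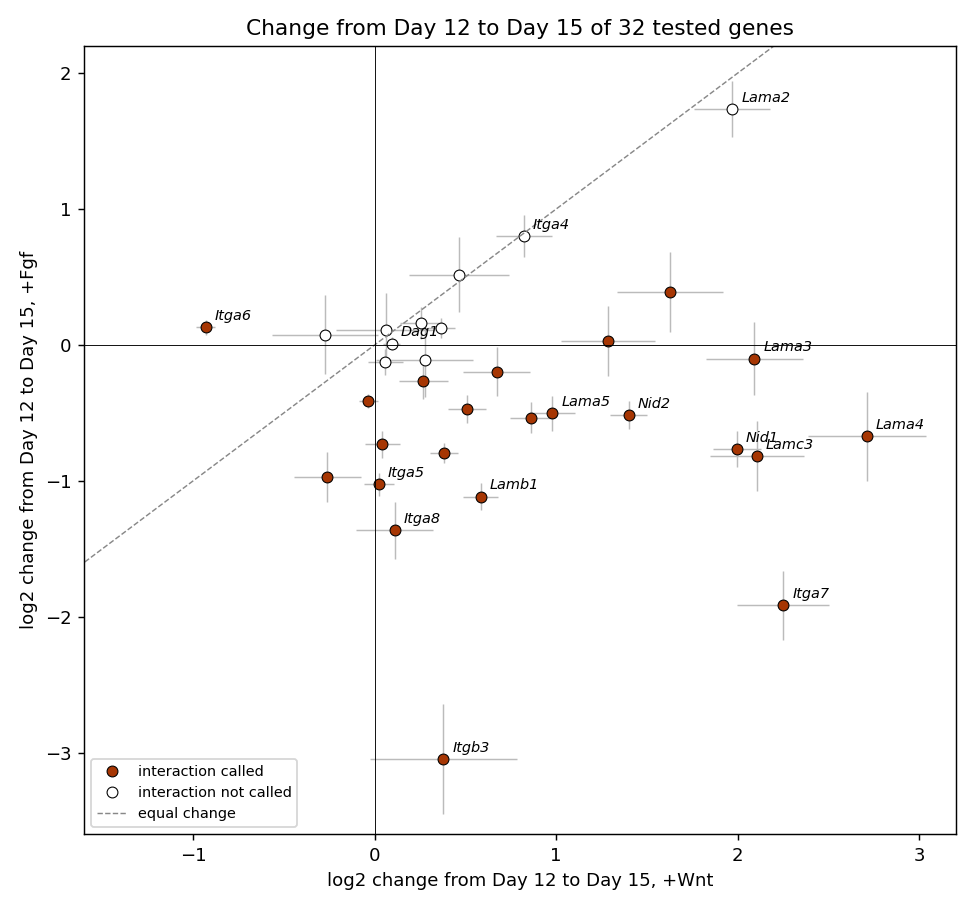
Log2 change from Day 12 to Day 15 in +Fgf (y axis) against that in +Wnt (x axis) for 32 of the 33 tested genes, with SE of limma as bars. Filled points are the 22 genes whose changes differed (limma adjusted p under 0.05), all but Itga6 below the dashed line of equal change, and Lama2 and Itga4 lie close to that line.

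The remaining genes were rare. Itga1, the highest per kilobase at Day 10 of the collagen-binding subunits with an exon length (Itga10 had none), was 1.43, 0.535 and 0.993 CPM at Day 10, 1.46, 1.78 and 2.36 CPM in Day 12 +Fgf and 1.07, 0.696 and 0.927 CPM in Day 12 +Wnt. At Day 15 Itga1 was 1.77, 1.24 and 2.12 CPM in +Fgf and 1.12, 1.04 and 1.26 CPM in +Wnt, and the Day 12 tissues did not overlap (log2 0.85, SE 0.27, limma adjusted p = 0.0139). Without replicate 3 of Day 12 +Fgf the difference was 0.69 (limma adjusted p = 0.0664), and without replicate 2 of Day 12 +Wnt it was 0.72 (limma adjusted p = 0.061). Itga10, Itga11 and Itga2b, and Itgb4, the partner of Itga6 in hemidesmosomes, stayed under 3.5 CPM in every library, and Itga10 was not called in any comparison. The 9 genes below the filter were Itga2, Itgb6, Itgb7 and 6 subunits of leukocyte integrins (Itgad, Itgae, Itgal, Itgam, Itgax and Itgb2). Itgad was listed at 0 in all 15 libraries, and the highest of the other 8 in any library was 15 reads, of Itga2.

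Markers of other cells were summed beside these values. Of 7 leukocyte markers, 4 or 5 were at 3 reads or fewer in every library of each group, Aif1 and Tyrobp in all 5 groups, and their sum was 0.848 to 3.94 CPM in 4 groups and 20.8 to 24.0 CPM in Day 15 +Wnt, where Csf1r alone was 19.2 to 21.8 CPM. Platelet markers Pf4, Ppbp and Gp9 were at 3 reads or fewer throughout. Of 6 endothelial markers, Emcn was at 3 reads or fewer in all groups, and Tie1 and Cdh5 in all but Day 12 +Fgf. Their sum ran from 5.60 to 9.33 CPM in Day 12 +Wnt to 216.3 to 266.8 CPM in Day 15 +Fgf, and Kdr, which is also expressed by retinal progenitors, was 215.7 to 265.5 CPM of the latter. The 8 markers of mesenchyme and neural crest summed to 352.4 to 402.5 CPM in Day 15 +Wnt and 61.5 to 187.9 CPM elsewhere, with Sox10 and Foxd3 at 3 reads or fewer in both +Wnt groups. Lama2, Lama4 and Nid2 also had their highest mean in Day 15 +Wnt, and so did other genes, among them Lama5, Lamb1, Itga3 and Itgb5. In +Fgf the mesenchyme sum was 108.3 to 187.9 CPM at Day 12 and 61.5 to 87.0 CPM at Day 15. The genes of this list did not move together there: Col3a1 had means of 62.2 and 12.4 CPM at the 2 days, and Pdgfra of 4.82 and 10.4 CPM. The 7 endoderm markers summed to 72.5 CPM in 1 Day 15 +Fgf library and 3.83 to 33.5 CPM elsewhere. Gata4 (5.63 CPM) and Afp (8.65 CPM) were highest in replicate 2 of Day 15 +Fgf. Within its group, replicate 2 was also the highest library for Lama1, Lama5, Lamc1 and Nid2, but not for Nid1 or Lamb2. The 6 markers of ganglion cells and early neurons summed to 34.9 to 57.0 CPM at Day 10, to 969.3 to 1046 CPM in Day 15 +Fgf and to 578.1 to 782.8 CPM in Day 15 +Wnt, and the 4 lens markers were at most 49.0 CPM. The part of such cells in the results was not tested.

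Related genes from 4 lists were read in the same fit, in which 51.5% of all genes were called between the tissues at Day 12, and 57.1% in +Fgf and 68% in +Wnt from Day 12 to Day 15. Of the 25 tested of 26 other basement membrane genes, 12 were higher and 8 lower in +Fgf than in +Wnt at Day 12 (median 0.44, against -0.002 for all genes). From Day 12 to Day 15, 18 rose and 4 fell in +Wnt (median 0.90), and 8 rose and 10 fell in +Fgf (median -0.31). The collagen IV chain genes Col4a1 and Col4a2 were 620.4 ± 96.7 and 384 ± 69.0 CPM in +Fgf at Day 12, against 105 ± 48.4 and 95.2 ± 27.8 CPM in +Wnt (SD, n = 3). Their differences were log2 2.64, limma adjusted p = 1.49e-08 and log2 2.03, limma adjusted p = 7.75e-09. These partners of the nidogens were thus higher in +Fgf, as Nid1 was, while Nid2 was lower there (log2 -0.94, limma adjusted p = 8.25e-07). Fbln2, fibulin 2, was 30.6 ± 10.6 CPM in +Fgf at Day 12, against 4.32 ± 0.651 CPM in +Wnt (log2 2.70, limma adjusted p = 9.08e-08), and Tinagl1, a laminin-associated protein, 13.7 ± 4.21 and 1.95 ± 0.953 CPM (log2 2.70, limma adjusted p = 7.44e-07).

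Of the 11 integrin ligands outside the laminins, 9 were higher and 1 lower in +Fgf at Day 12, with a median of 2.37. Tnc, tenascin C, was 160.1 ± 47.0 CPM in +Fgf at Day 12, against 1.32 ± 0.599 CPM in +Wnt (log2 6.67, limma adjusted p = 5.31e-11). Spp1, osteopontin, was 532 ± 301 and 16.2 ± 5.34 CPM (log2 4.91, limma adjusted p = 1.6e-09), with a large spread between the +Fgf libraries. Tgfb1, a ligand of Itgav in its latent form, was 13.9 ± 6.36 and 0.152 ± 0.0934 CPM (log2 4.90, limma adjusted p = 2.89e-10). Vtn, vitronectin, was the 1 that was lower in +Fgf, at 0.488 ± 0.294 CPM against 6.06 ± 1.35 CPM (log2 -3.05, limma adjusted p = 1.64e-07). By Day 15, 9 of the 11 had fallen in +Fgf and 1 had risen (median -1.503), and in +Wnt 6 had risen and 1 had fallen (median 0.50).

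Of the 17 tested of 19 integrin adhesion genes, 12 were higher and 1 lower in +Fgf at Day 12 (median 0.32). Tns1 (tensin 1) differed by log2 1.89, limma adjusted p = 9.2e-09, Vcl (vinculin) by log2 1.55, limma adjusted p = 4.42e-10 and Tln1 (talin 1) by log2 0.99, limma adjusted p = 2.42e-09, and Parvb (parvin beta) was the 1 that was lower (log2 -1.11, limma adjusted p = 2.02e-07). From Day 12 to Day 15 in +Fgf, 13 of the 17 fell and 2 rose (median -0.31). Of the 19 genes found for dystroglycan partners and for the enzymes of its sugar chains, 4 were higher and 3 lower at Day 12 (median 0.03), a share below the 51.5% of all genes called. Among the called ones were Dmd, dystrophin (log2 0.75, limma adjusted p = 1.23e-05), Sntb1, a syntrophin (log2 0.72, limma adjusted p = 0.0148), and Ispd (log2 -0.45, limma adjusted p = 0.00538).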

How the data were processed

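RNA from 15 samples of mouse embryonic stem cell derived optic tissue (5 groups, 3 biological replicates each) had been sequenced from a stranded TruSeq library kit. According to the submitters' processing notes, the tools were bcl2fastq 1.8.4, FastQC 0.10.1, TopHat2 2.0.8b, Cufflinks 2.1.1, Cuffdiff and edgeR 3.2.4, with mm10 as the genome. The strand setting of the counting is not given in the sources used here. The values deposited by the authors are a normalized signal per gene, labelled CPM: whole reads divided by an effective library size, with column totals of 936418 to 1075448. Whole reads were recovered for 100% of the values within 0.02 reads, 12556998 to 16175450 per library with a median of 15073047, so 3 reads, the limit used for a gene near 0, were worth about 0.2 CPM. The deposited per-sample tables and the series table differed by at most 7.8e-09 of a value.

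The design assumed CPM, and the test was kept as planned: limma 3.58.1 (trend) on log2(value + 0.3), with 5 group means over 15 libraries and 13845 of 23244 genes (at least 1 CPM in at least 3 libraries), two-sided, Benjamini-Hochberg adjusted over all genes tested, at a threshold of 0.05. The 7 comparisons were each Day 12 tissue against Day 10, Day 15 against Day 12 in each tissue, +Fgf against +Wnt at each day, and the difference between the Day 12 to Day 15 changes. On simulated data for the Day 15 +Fgf against +Wnt comparison (13845 genes, 200 changed) limma recovered 97% and edgeR 4.0.16 recovered 96.5%. The simulation gave every gene the same dispersion and held no small changes, so these rates do not cover small changes in the data. R 4.3.3, Python 3.11.15, NumPy 2.4.6, pandas 2.3.3 and matplotlib 3.10.9 were used.

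Values per library are given for members that were called with a log2 change of at least 1 in any comparison and had at least 5 CPM in their highest group, or that had the highest level per kilobase of their class at Day 10. From each of the 4 lists at most 4 genes are named, those with the largest change among called genes that reached 5 CPM in either group compared. A few genes are counted in the totals but not reported here by name. The members and lists were chosen with earlier results of these data known. Coordinates and exon lengths are from GENCODE (GRCm38, the build also called mm10), promoter bases from RefSeq (GRCm38.p6). All replicates come from 1 cell line, and no label says whether they were separate differentiations, so p-values measure the spread between these samples. Alternatives tried were 2 other pseudocounts (0.05 and 1), no filter and a filter at 10 CPM, median-of-ratios scaling, edgeR's quasi-likelihood test of recovered whole reads, the replicate number as a block, RNA integrity as a covariate, a fit of the compared samples only, and each library left out. In 30 pairs of same-numbered samples of different groups the correlation of the deviations from the group means was -0.253 to 0.245.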

Additional observations from a re-analysis of the deposited data

Results flagged for a closer look

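For 12 genes the change from Day 12 to Day 15 differed between the stimulations by at least 1 on the log2 scale and was called by limma's test of that difference (the change in +Fgf minus the change in +Wnt). Among laminin chains the difference was -3.38 for Lama4, -1.48 for Lama5, -1.70 for Lamb1 and -1.18 for Lamc1. For the nidogens it was -2.76 for Nid1 and -1.91 for Nid2. For integrin subunits it was -4.17 for Itga7, -3.43 for Itgb3, -1.47 for Itga8, -1.39 for Itga3 and -1.05 for Itga5, and 1.06 for Itga6. The 3 differences of genes with low levels moved with the method, from -4.69 (edgeR) to -3.47 (1 CPM added) for Itga7, from -3.82 to -2.62 for Lama4 and from -4.19 to -2.50 for Itgb3, always negative and called.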

How the results depend on the processing

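Of the 154 calls of the 33 genes over the 7 comparisons, none changed direction under any alternative. Over 157 results (these and 3 differences named as not called) and 2445 recomputed values, 2304 kept their side of the threshold and 141 lost the call, 34 of them with RNA integrity as a covariate. Of the 3 not called, the Itga5 difference at Day 15 changed sign with that covariate (-0.10), and the Itga4 difference between the changes ran from -0.13 to 0.23. With a filter of at least 10 CPM, which left 18 of the 33 genes to test, 15 genes were called in Day 12 +Fgf against Day 10, 10 in +Wnt from Day 12 to Day 15, 16 between the tissues at Day 12, 14 at Day 15, and 13 in the difference between the changes. With RNA integrity as a covariate, 13 genes were called in Day 12 +Fgf against Day 10 and 15 between the tissues at Day 15, and the cause was not tested. The other 2 comparisons with that filter, and the other 5 with that covariate, stayed within 1.5 times the counts given. By edgeR's quasi-likelihood test of recovered whole reads, 23, 21, 18, 21, 26, 22 and 22 genes were called, in the order Day 12 +Fgf and Day 12 +Wnt against Day 10, the later change in +Fgf and in +Wnt, the tissues at Day 12 and at Day 15, and the difference between the changes. Leaving out 1 library at a time gave 19 to 24, 19 to 21, 16 to 19, 18 to 20, 21 to 26, 21 to 23 and 20 to 24 called genes in the same order. Of 30 same-numbered pairs, 7 correlated above 0.1. Differently numbered pairs were not compared, so this cannot tell whether the replicate numbers paired the samples. With the replicate number as a block the counts were 23, 21, 17, 20, 26, 23 and 23. Values of genes near 1 CPM moved with the number added before taking logs and with the test, as for Itgb3 between the tissues at Day 12 (2.44 with 1 CPM added, 3.84 by edgeR). The 9 genes below the filter were not tested in the fit reported. One of them, Itga2, had 9 to 15 reads in the Day 15 +Wnt libraries and at most 3 in Day 12 +Wnt, a level at least 4.25-fold higher.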
